A study of Sus scrofa with 8 samples.

Results

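Complement genes were followed one by one through pig retinas after intravitreal delivery of the vector AAV2.7m8/CAG-GFP. The list held 9 genes of the classical pathway (C1R, C1S, C2), the alternative pathway (CFB), the point where the pathways meet (C3) and their regulators (CFI, SERPING1, CD55, CD59). It was drawn up by role with earlier results of these data known, and 7 of the 9 were found by symbol among the 35683 genes of the files. CD55 and CD59 were not found by symbol, and their expression is not analysed here. Raw counts of unique molecular identifiers (UMIs) were summed for each gene over the nuclei of a cell class in a retina, and levels are given as UMIs per 1000000 UMIs of that class in that retina (CPM).

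Single-nucleus RNA sequencing (snRNAseq) covered 8 retinas of 6 female Yucatan minipigs, aged 3 to 5 months by the study's methods. At week 2, the left and the right eye of 1 AAV-injected animal (7221) and of 1 vehicle-injected animal (7222) were measured. Left eyes alone were measured at week 4, from 2 AAV-injected animals (7248, 7249) and 2 vehicle-injected animals (7250, 7251). AAV eyes received 5e11 vector genomes each, with GFP under the ubiquitous CAG promoter, and control eyes received buffer. Every animal, controls included, had the hyaluronidase Vitrase injected into the vitreous 2 weeks before dosing and received methylprednisolone from before dosing and then weekly, so no group shows complement expression without a corticosteroid. By the methods, some week 4 animals of both arms were killed early in the fourth week, and the labels do not say which. Each of the 4 groups carries a batch label of its own, so batch and group cannot be told apart. The main week 4 tests and week 2 ratios set AAV values against the vehicle values of their own week. Where all retinas of an arm are compared, the comparison crosses weeks and batch labels. It then counts both eyes of the week 2 animal.

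Of 388491 barcodes in the files, 350537 were kept after a filter on mitochondrial share. Of these, 214613 were assigned to a class by marker genes, none of them a complement gene. These gated nuclei held 42.3% (SERPING1) to 55.7% (CFI) of the UMIs of each member but C3, for which they held 77.3%. Total UMIs ran from 121544835 to 173614051 per retina, and 17084 of 368982 distinct barcode sequences occurred in more than 1 retina. Cell types are named by their markers alone (rod-like, Müller-like and so on) and are written below without the suffix. One gate rested on PAX2 and GFAP only, and its nuclei are called PAX2/GFAP nuclei. By the paper, GFAP is made by Müller glia as well as astrocytes. Different cells in this gate in the 2 arms and a change within the same cells cannot be told apart. The transgene was read in every AAV-injected retina in each of the 9 tested classes, at 25.6 and 26.0 CPM over all nuclei at week 4 and at week 2 at 28.9 CPM in the left eye and 56.3 CPM in the right. Vehicle retinas held at most 0.00648 CPM of it over all nuclei.

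Complement is a cascade of plasma and tissue proteases. In the classical pathway, C1q bound to antibody or to a surface activates the proteases C1r and C1s, which cleave C4 and C2 into a C3 convertase. The alternative pathway builds its convertase from C3b and factor B. Factor I inactivates C3b and C4b with the help of cofactors, and the C1 inhibitor, product of SERPING1, blocks C1r and C1s. In the retina, microglia and glia are known sources of complement transcripts.

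The 7 measured members lie on 4 chromosomes of Sscrofa11.1, by the RefSeq annotation. C1R (ENSSSCG00000060530) spans chr5:63644097-63655149 on the plus strand, and C1S (ENSSSCG00000055651) spans chr5:63670309-63681466 on the minus strand, so that their ends face each other 15159 bases apart. C2 (ENSSSCG00000001422; chr7:24020590-24034042) and CFB (ENSSSCG00000024914; chr7:24034077-24040523) stand in a row on the plus strand with 34 bases between them. C3 (ENSSSCG00000013551) spans chr2:72431470-72471622 on the plus strand. SERPING1 (ENSSSCG00000013181) spans chr2:13324160-13338826 on the minus strand, and CFI (ENSSSCG00000009138) spans chr8:112430824-112470844 on the plus strand. The 250 bases before the annotated start are shown for the 3 members that rose in the most classes at week 4, the 2 proteases and their inhibitor, 5′ to 3′ on the strand of the gene, with the match to a searched motif in capitals.
C1R, chr5:63643847-63644096, plus strand: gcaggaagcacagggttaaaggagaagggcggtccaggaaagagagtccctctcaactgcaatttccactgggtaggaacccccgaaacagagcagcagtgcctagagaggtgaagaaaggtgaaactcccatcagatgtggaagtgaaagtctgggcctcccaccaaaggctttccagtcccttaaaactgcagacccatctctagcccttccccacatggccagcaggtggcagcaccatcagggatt
C1S, chr5:63681467-63681716, minus strand: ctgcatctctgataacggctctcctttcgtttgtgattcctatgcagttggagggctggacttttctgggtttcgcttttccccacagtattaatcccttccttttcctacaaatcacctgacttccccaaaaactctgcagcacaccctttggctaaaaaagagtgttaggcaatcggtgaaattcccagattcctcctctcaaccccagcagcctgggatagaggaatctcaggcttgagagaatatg
SERPING1, chr2:13338827-13339076, minus strand: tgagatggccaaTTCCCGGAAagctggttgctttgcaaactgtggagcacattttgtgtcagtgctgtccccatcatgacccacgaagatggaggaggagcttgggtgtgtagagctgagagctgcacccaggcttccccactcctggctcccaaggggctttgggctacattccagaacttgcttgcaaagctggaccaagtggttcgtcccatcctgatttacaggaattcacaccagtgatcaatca
3 motifs were searched on both strands of these windows. They were GAAANNGAAA, a core of interferon-stimulated response elements, TTCNNNGAA, the palindrome that STAT dimers bind, and GGGANTTTCC, a form of the NF-kB site. SERPING1 held 1 match, to TTCNNNGAA, whose first base lies 238 bases before the start, and neither C1R nor C1S held a match to any of the 3. Of the 19559 protein-coding promoters of this length, 6.11% held TTCNNNGAA, 3.01% GAAANNGAAA and 0.399% GGGANTTTCC. Among the other members, CFI held GAAANNGAAA 237 bases before its start and CD55 held TTCNNNGAA 167 bases before it. No match overlapped another.

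The 7 genes fell into 3 patterns. C1R, C1S and SERPING1 were higher in AAV-injected retinas in several classes, Müller cells and PAX2/GFAP nuclei among them. CFI rose in the same glia at week 4 and was called in no other class. At week 2, without a test, it was at least 2-fold higher in rods, cones, bipolar, amacrine, horizontal and Müller cells. Among gated nuclei, C2, CFB and C3 were read mainly in 1 or 2 classes each. These were bipolar cells for CFB, bipolar and myeloid cells for C2, and horizontal and myeloid cells for C3. Among these 3 genes the week 4 test called C3 alone, in PAX2/GFAP nuclei. At week 4, edgeR's quasi-likelihood test on 2 against 2 animals was run for 42 of the 63 pairs of a member and a class, the rest having too few UMIs. Of these, 17 pairs were higher with AAV at a Benjamini-Hochberg adjusted p under 0.05, where 3.99% of all gene and class pairs tested were, and 0 were lower, where 3.42% were. Without adjustment, 25 pairs were higher and 1 lower at p under 0.05. The share of all gene and class pairs at that threshold was not counted, so these counts have no baseline. DESeq2 called 0 pairs lower too. SERPING1 was called in 6 of the 9 classes tested, C1R in 4 of 6, C1S in 4 of 5, CFI in 2 of 9, C3 in 1 of 7, C2 in 0 of 5 and CFB in 0 of 1. By class, 4 of 4 members tested were higher in Müller cells (9.98% of all genes tested there), 5 of 5 in PAX2/GFAP nuclei (8.01%), 3 of 7 in bipolar cells (2.09%), 3 of 6 in amacrine cells (2.49%), 1 of 3 in horizontal cells (3.35%) and 1 of 2 in ganglion cells (2.12%). None of 6 in rods (5.6%), 4 in cones (1.0%) and 5 in myeloid nuclei (2.71%) was. Members enter the test only where they hold enough UMIs in some arm. Some pairs entered through the AAV arm alone. Examples are C1R in Müller cells (41 against 0 UMIs), PAX2/GFAP nuclei (55 against 2) and bipolar cells (26 against 0), and C1S in Müller cells (126 against 1). Such pairs could hardly be called lower, so the counts by member and by class are no free tallies of direction. An exact permutation test of 2 against 2 animals cannot go below p = 0.333, so these p-values rest on the spread that edgeR shares across genes.

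**Figure D1:**
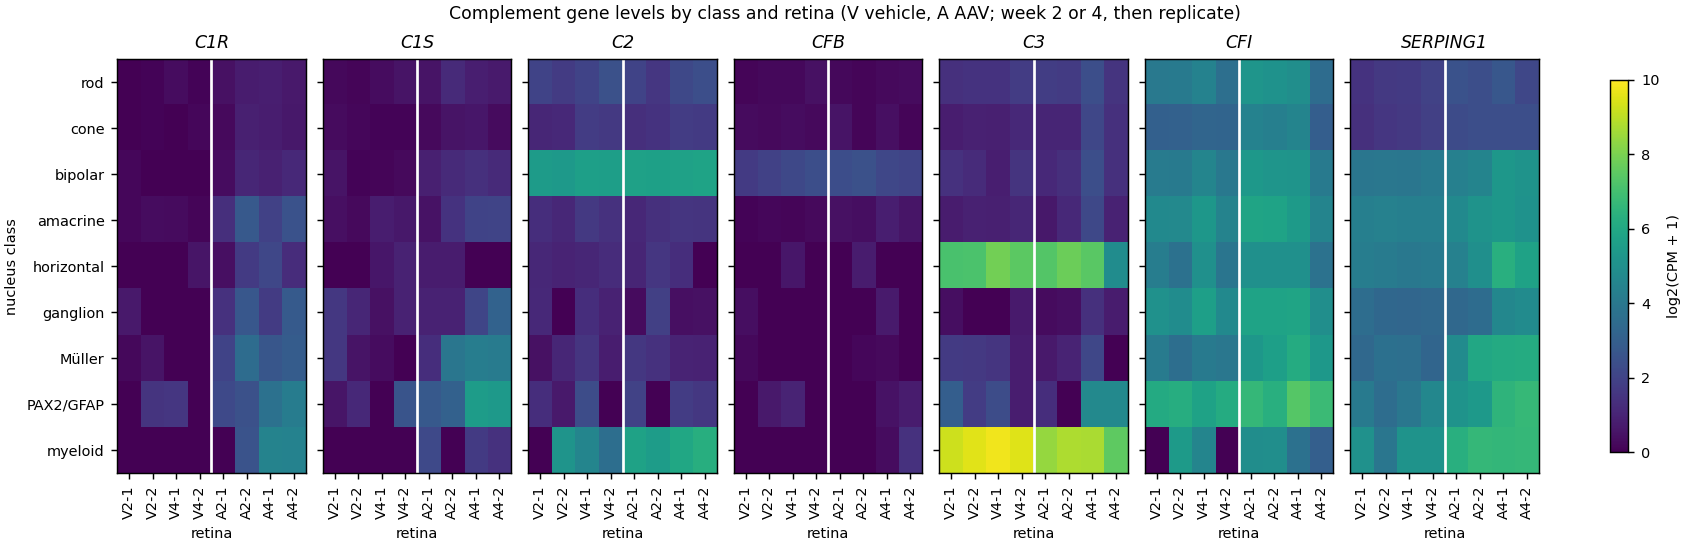
Heat map of the 7 members (panels) by cell class (rows) and retina (columns), on a log2(CPM + 1) colour scale. C2 and CFB are bright in bipolar cells, C3 in horizontal and myeloid nuclei, and C1R and C1S brighten in glia of AAV-injected retinas.

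C1R, the protease that C1q activates first, was barely read in vehicle-injected retinas. In Müller cells it stood at 0.176 and 0.436 CPM in vehicle animal 7222 (left eye first) and at 0 in both week 4 vehicle animals, against 2.98 and 10.7 CPM in AAV animal 7221 (left eye first) and 5.35 and 6.62 CPM in animals 7248 and 7249. All 4 AAV-injected retinas lay above all 4 controls. With 41 UMIs in the AAV arm at week 4 and 0 in the vehicle arm, the level was at least 13-fold higher against a floor of 3 UMIs over both vehicle retinas (edgeR adjusted p = 0.00135). Without AAV animal 7248, and with the stricter gate, too few UMIs were left for the test. Counting error sets these floors and every interval given beside a ratio or share, which cover 95% and leave out differences between animals.

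PAX2/GFAP nuclei carried C1R at 0 and 1.84 CPM in vehicle animal 7222, 1.98 and 0 in animals 7250 and 7251, 3.66 and 4.58 in AAV animal 7221, and 12.2 and 17.2 CPM in animals 7248 and 7249. The arms did not overlap, and at week 4 the difference was 4.03 ± 0.77 on the log2 scale (SE, edgeR adjusted p = 0.00889). It rests on 55 against 2 UMIs, a ratio of 16.7 with an interval of 4.41 to 141. Leaving out vehicle animal 7251, which held no C1R UMI, moved the value to 2.89 and ended the call (adjusted p = 0.0699). Without animal 7250 the other control stood at 0, and the fitted value of 7.69 is no measure of size.

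In amacrine cells too, C1R lay higher in every AAV-injected retina than in any control. The 4 controls held 0.0935 to 0.257 CPM, and the 4 AAV-injected retinas held 1.54, 5.90, 2.78 and 4.80 CPM, with left and right eye at week 2 before animals 7248 and 7249. The week 4 difference was 4.52 ± 0.60 (log2, edgeR adjusted p = 0.00191), and 5.13 without vehicle animal 7250. In bipolar cells, 26 UMIs in the AAV arm faced 0 in the vehicle arm at week 4, which is at least 7.91-fold higher (edgeR adjusted p = 0.0356), a call made in 4 of 11 alternatives. It was lost without vehicle animal 7250 (adjusted p = 0.134) or 7251 (0.109), and the other 5 gave no adjusted p. In ganglion cells, with too few UMIs for the test, 24 faced 0 (at least 7.95-fold), and at week 2 the AAV eyes held 1.68 and 5.50 CPM against 0.598 and 0. Rods held 0.791 and 0.595 CPM against 0.260 and 0.0750 CPM at week 4 and did not pass (1.93 ± 0.56, adjusted p = 0.0793).

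Myeloid nuclei are the usual home of C1q, and they carried C1R too, in AAV-injected retinas. The week 4 AAV animals held 21.1 and 20.4 CPM, from 85 and 60 UMIs. The left and right eye of animal 7221 held 0 and 4.95 CPM, and no C1R UMI was found in myeloid nuclei of any vehicle retina. The vehicle retinas had 50 to 65 myeloid nuclei each and the week 4 AAV animals 1366 and 839, so that the floor of the vehicle arm was 17.0 CPM, the bound at week 4 only 1.22-fold, and the test did not pass (edgeR adjusted p = 0.172). Among gated nuclei, myeloid nuclei gave 34.6% and 26.3% of the C1R UMIs in animals 7248 and 7249, more than any other class. Ungated nuclei held more C1R UMIs than myeloid nuclei in these animals, 159 and 121 against 85 and 60.

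C1S, the protease that cleaves C4 and C2, followed C1R in glia and reached higher counts there. Müller cells held 2.11 and 0.436 CPM in vehicle animal 7222, 0.243 and 0 in animals 7250 and 7251, 1.49 and 14.2 in AAV animal 7221 (left eye first), and 17.8 and 17.0 CPM in animals 7248 and 7249. The left eye of animal 7221 lay within the range of the controls, and the other 3 AAV-injected retinas lay well above it. At week 4, 126 UMIs stood against 1, a ratio of 120 (interval 21.1 to 4762; edgeR adjusted p = 5.78e-05). The fitted log2 difference of 6.56 became 4.55 with the stricter gate and 4.08 with all 6 animals in 1 fit, and was called in both. Without animal 7250 the other control held 0 UMIs, and the fitted value of 8.83 is no measure of size.

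In PAX2/GFAP nuclei C1S stood at 0.496 and 1.23 CPM in vehicle animal 7222, 0 and 5.10 in animals 7250 and 7251, 5.86 and 7.63 in AAV animal 7221, and 45.4 and 40.5 CPM in animals 7248 and 7249. The arms did not overlap, though vehicle animal 7251 came close to the week 2 AAV eyes, and the week 4 difference was 3.93 ± 0.56 (log2, edgeR adjusted p = 0.00226; 0.0849 with DESeq2). It was 3.13 without animal 7250, and without animal 7251 the other week 4 control held no C1S UMI, so that the fitted value of 9.17 is no measure of size. A C1S UMI was found in 30.9% and 28.0% of PAX2/GFAP nuclei of animals 7248 and 7249, against 0% and 2.58% in animals 7250 and 7251. After thinning each nucleus to 1000 UMIs the shares were 4.62% and 3.95% against 0% and 0.526%. The thinning matters because PAX2/GFAP nuclei of the 2 week 4 AAV animals had medians of 10326 and 10664 UMIs, against 4723.5 and 4806 in the controls. Müller nuclei showed the same gap, 6034 and 6114.5 against 2863.5 and 2856 UMIs. CPM values are relative to all UMIs of the class, and the part of RNA content in these results was not tested.

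In the week 4 AAV animals neurons held less C1S than Müller cells and PAX2/GFAP nuclei. Ganglion cells had the highest level among them, 3.29 and 7.86 CPM in animals 7248 and 7249 against 0.373 and 0.963 in the controls, from 32 against 4 UMIs, too few for the test. The week 2 AAV eyes lay below the control eyes there. Amacrine cells had 3.08 and 3.16 CPM in animals 7248 and 7249 against 0.741 and 0.561 in the week 4 controls (2.23 ± 0.41, edgeR adjusted p = 0.0144), and bipolar cells 1.59 and 1.30 against 0.0882 and 0.184 CPM (35 against 3 UMIs, ratio 10.6, interval 3.36 to 54.1; adjusted p = 0.0323). The amacrine call was lost without animal 7248, 7249 or 7251 (adjusted p from 0.0578 to 0.0812) and with DESeq2 (0.109), and the bipolar call without animal 7250 or 7251 (0.190 and 0.108), while DESeq2 gave no adjusted p for it. In horizontal cells no C1S UMI was read in either week 4 AAV animal. Mural cells, too few to test, held 9.16 to 15.3 CPM in the 4 controls and 64.0 to 90.8 CPM in the 4 AAV-injected retinas, without overlap, from 4 UMIs in the week 4 controls and 18 in the week 4 AAV animals.

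Transcripts of myeloid genes were also read in neurons of week 4 AAV-injected retinas. C1QB, which encodes a chain of C1q, stood at 148 to 219 CPM in myeloid nuclei of all 8 retinas. In rods it was 3.07 and 2.80 CPM in animals 7248 and 7249 against 0.390 and 0.375 in the week 4 controls, and in amacrine cells 2.09 and 1.40 against 0.212 and 0.0935 CPM. At week 2 it was 0.0699 and 0 CPM in amacrine cells of animal 7221, which held 1.54 and 5.90 CPM of C1R. In myeloid nuclei of animals 7248 and 7249, C1QB stood at 194 and 176 CPM and C1R at 21.1 and 20.4 CPM. In Müller cells C1QB was 1.39 and 0 CPM against 0 and 0.746, and C1QA 1.39 and 1.89 against 0 and 0 CPM, below C1R and C1S in the same nuclei. The part of myeloid RNA in the week 4 C1R and C1S values of neurons was not tested. A stricter gate asked for a larger margin between classes and left out nuclei with an excess of markers of another class. It kept 14 of the 17 calls. C1S in bipolar cells missed the threshold with it (edgeR adjusted p = 0.0531), and C1R in Müller and bipolar cells had too few UMIs left for the test. This gate drops mixed nuclei and not single stray UMIs, so it does not measure the part of myeloid RNA.

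The balance of the 2 proteases differed between classes within the same retinas. Of the C1R and C1S UMIs together at week 4 in AAV-injected animals, C1S made up 75.5% in Müller cells (interval 68.2% to 81.8%) and 75.7% in PAX2/GFAP nuclei (69.5% to 81.1%). It made up 45.7% in amacrine cells (36.8% to 54.7%), 50.8% in rods (41.9% to 59.6%) and 8.81% in myeloid nuclei (4.90% to 14.3%). These are shares of molecules counted from the 3′ end, not levels per length. The intervals for Müller and myeloid nuclei lie far apart. At week 2 the share over both eyes was 55.5% in Müller cells (48.6% to 62.1%) and 22.6% in amacrine cells (16.4% to 29.7%). Most of these UMIs came from the right eye, and the left eye gave 5 UMIs of C1S and 10 of C1R in Müller cells.

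**Figure D2:**
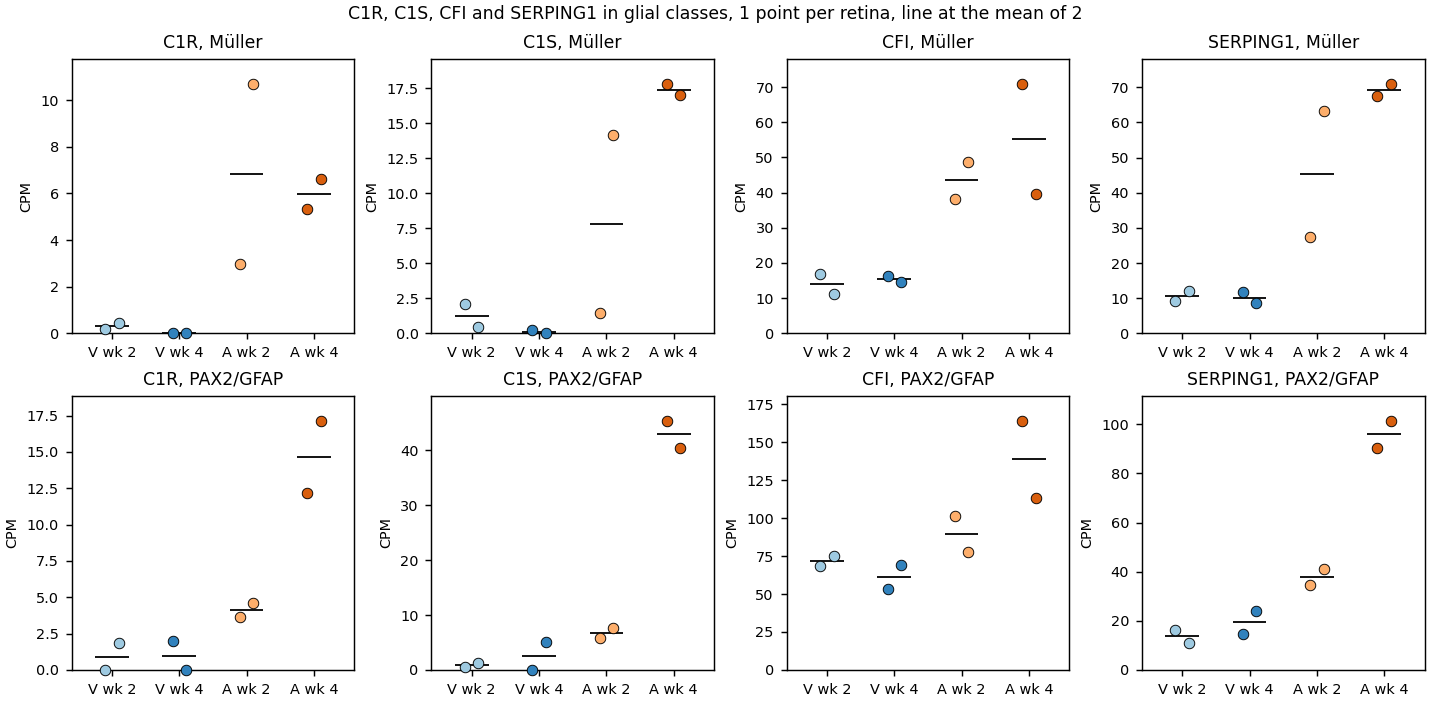
CPM of C1R, C1S, CFI and SERPING1 in Müller cells and PAX2/GFAP nuclei, with 1 point per retina by group (V for vehicle, A for AAV, at weeks 2 and 4) and a line at the mean of each 2 retinas. At week 4 both AAV-injected animals lie above both vehicle-injected animals in every panel.

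SERPING1 encodes the C1 inhibitor, the main brake on C1R and C1S. It was the member that rose in the most classes. Müller cells held 9.32 and 12 CPM in vehicle animal 7222, 11.6 and 8.58 in animals 7250 and 7251, 27.4 and 63.3 in AAV animal 7221 (left eye first), and 67.5 and 70.9 CPM in animals 7248 and 7249. The arms were far apart at both weeks, and the week 4 difference was 2.71 ± 0.21 (log2, edgeR adjusted p = 2.23e-05). PAX2/GFAP nuclei held 11.04 to 24.05 CPM in the 4 controls, 34.4 and 41.2 CPM in AAV animal 7221, and 90.5 and 102 CPM in animals 7248 and 7249 (2.33 ± 0.26, adjusted p = 0.000694).

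Horizontal cells held 15.1 to 18.1 CPM of SERPING1 in the 4 controls, 20.1 and 30.4 CPM in AAV animal 7221, and 77.6 and 53.1 CPM in animals 7248 and 7249 (2.00 ± 0.26, edgeR adjusted p = 0.000896). Ganglion cells held 8.95 to 11.07 CPM in the controls, and the week 2 AAV eyes fell inside that range at 9.37 and 10.7, whereas animals 7248 and 7249 held 24.0 and 27.1 CPM (1.54 ± 0.25, adjusted p = 0.00400). The difference was smaller in bipolar cells (1.26 ± 0.15, adjusted p = 0.00541) and in amacrine cells (0.90 ± 0.15, adjusted p = 0.00719). Amacrine cells held 18.9 to 20.1 CPM in the controls and 25.8 to 37.9 CPM in the 4 AAV-injected retinas, without overlap. With all 6 animals in 1 fit and week as a term, the calls in bipolar cells (0.98, adjusted p = 0.0802) and ganglion cells (0.93, adjusted p = 0.328) were lost.

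In photoreceptors SERPING1 was low and did not pass, at 5.51 and 3.34 against 2.26 and 2.92 CPM in rods (0.86 ± 0.32, edgeR adjusted p = 0.142) and 4.26 and 4.29 against 2.18 and 2.68 CPM in cones (0.87 ± 0.25, adjusted p = 0.157). Myeloid nuclei of the 4 AAV-injected retinas held 78.9 to 100 CPM and those of the 4 controls 14.2 to 34.1 CPM. The arms did not overlap, but the week 4 controls gave 3 UMIs each, and the test missed the threshold (1.71 ± 0.38, adjusted p = 0.0630). It passed with the stricter gate (adjusted p = 0.0109), with all 6 animals in 1 fit (0.0145) and without the filter on low counts (0.0139). Adjusted p-values without that filter were smaller at like differences for C1R in Müller cells too. In myeloid nuclei the median of all tested genes was itself shifted by 0.24 on this scale.

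A call in 1 class and none in another does not show a difference between them, so the difference was tested with animal as a block. The log2 effect on SERPING1 in Müller cells exceeded that in amacrine cells by 1.74 ± 0.24, in rods by 1.92 ± 0.38, in cones by 1.87 ± 0.32, in bipolar cells by 1.45 ± 0.25 and in ganglion cells by 1.12 ± 0.31 (edgeR adjusted p from 0.000432 to 0.0493). It was not shown to differ from that in horizontal cells (0.78 ± 0.35, adjusted p = 0.244), PAX2/GFAP nuclei (0.35 ± 0.34, adjusted p = 0.701) or myeloid nuclei. For C1S the Müller effect exceeded that in amacrine cells (4.47 ± 1.06, adjusted p = 0.0163) and rods (5.70 ± 1.07, adjusted p = 0.00892) but was not shown to differ from that in bipolar cells (3.42 ± 1.58, adjusted p = 0.231), cones (4.46 ± 1.94, 0.221), ganglion cells (3.46 ± 1.53, 0.234) or PAX2/GFAP nuclei (2.13 ± 1.22, 0.442). In all, 14 of 41 member and class pairs passed this test, each with the larger effect in Müller cells. Of all pairs tested, 3.04% were larger and 4.49% smaller in Müller cells. A further 4 member pairs were left out because their difference could not be estimated, and the shares over all pairs had no such removal.

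CFI, the protease that inactivates C3b and C4b, was read in AAV-injected retinas in each of the 9 tested classes, highest in PAX2/GFAP nuclei. These held 68.4 and 74.8 CPM in vehicle animal 7222, 53.4 and 69.2 in animals 7250 and 7251, 101 and 77.8 in AAV animal 7221, and 164 and 113.2 CPM in animals 7248 and 7249. The arms did not overlap (week 4 difference 1.25 ± 0.23 on the log2 scale, edgeR adjusted p = 0.00813), and the call was lost without vehicle animal 7250 (1.08, adjusted p = 0.0607) and with all 6 animals in 1 fit (0.96, adjusted p = 0.111). Müller cells held 11.13 to 16.9 CPM in the 4 controls and 38.1, 48.8, 70.9 and 39.7 CPM in AAV animal 7221, left and right, and in animals 7248 and 7249. Here the arms were well apart (1.84 ± 0.27, adjusted p = 0.00135).

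Outside glia CFI was not called at week 4. In rods it stood at 30.1 and 10.8 CPM in AAV animals 7248 and 7249 and at 20.9 and 11.7 CPM in vehicle animals 7250 and 7251. Animal 7249 lay below both controls, and no difference was called (0.37 ± 0.48, edgeR adjusted p = 0.671). The ratio of animal 7248 to 7249 was 2.80 in rods (interval 2.53 to 3.10) and lay between 1.45 and 3.17 over the 9 classes, while that of vehicle animal 7250 to 7251 was 1.78 in rods (interval 1.49 to 2.15) and lay between 0.771 and 2.30 over the classes with UMIs in both, with 1.03 in cones. At week 2 both eyes of the AAV animal were above both eyes of the control in rods, at 36.5 and 33.6 against 15.5 and 16.3 CPM. Over both eyes the ratio was 2.19 in rods, 2.60 in cones, 2.28 in bipolar, 2.20 in amacrine, 2.08 in horizontal and 1.86 in ganglion cells. It was 3.19 in Müller cells, 1.31 in PAX2/GFAP nuclei and 1.28 in myeloid nuclei. Week 2 is 1 animal in each arm, and its differences cannot be told apart from a difference between animals of the kind seen at week 4. The log2 effect on CFI in Müller cells exceeded that in rods, cones, bipolar, amacrine, horizontal and ganglion cells by 1.13 to 1.98 (adjusted p from 0.000677 to 0.0298).

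**Figure D3:**
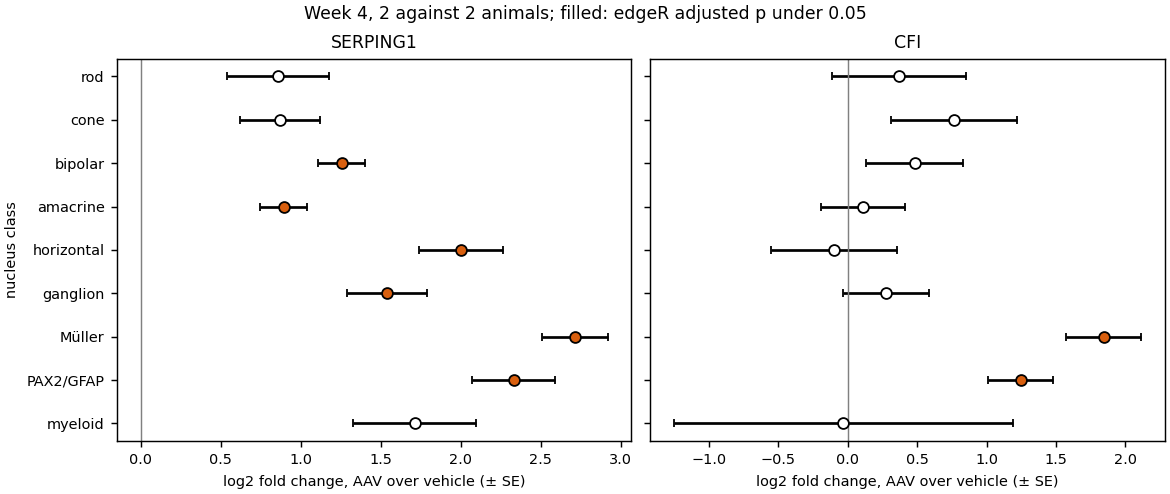
Log2 difference of AAV minus vehicle at week 4 for SERPING1 and CFI by cell class, with bars for 1 SE derived from edgeR's F statistic. SERPING1 is above 0 in all 9 classes, and CFI is highest in Müller cells (1.84) and PAX2/GFAP nuclei (1.25), the 2 classes in which it passed the test.

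C2, which supplies the protease of the classical C3 convertase, was highest in bipolar cells of every control. Bipolar cells held 44.2 and 41.7 CPM in vehicle animal 7222, 48.8 and 48.3 in animals 7250 and 7251, 52.3 and 50.03 in AAV animal 7221, and 51.3 and 54.8 CPM in animals 7248 and 7249. All 4 AAV-injected retinas lay above the controls by a small margin, and at week 4 the difference of 0.15 ± 0.11 (log2) did not pass (edgeR adjusted p = 0.534). Apart from myeloid nuclei, the other 7 of the 9 tested classes stood at or under 4.57 CPM in every retina. A C2 UMI was found in 11.6% to 19.1% of bipolar nuclei and in 0.337% to 1.06% of rods, at medians of 2454 to 4351 and 1477 to 2248 UMIs per nucleus.

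Within bipolar cells C2 was not even. Nuclei with TRPM1, a channel of ON bipolar cells, and without GRIK1 held 62.7 to 87.2 CPM in the 8 retinas. Those with GRIK1, a glutamate receptor subunit of OFF bipolar cells, and without TRPM1 held 27.5 to 42.6 CPM, so the ranges did not overlap. This split was chosen after the levels by class had been seen. The TRPM1 nuclei were 740 of 3024 and 1013 of 3266 bipolar nuclei in animals 7248 and 7249 and 1753 of 3849 and 1554 of 3873 in animals 7250 and 7251. Within them C2 stood at 86.0 and 87.2 against 67.1 and 73.6 CPM at week 4, and within GRIK1 nuclei at 42.6 and 36.5 against 33.4 and 34.3 CPM. The part of this make-up in the bipolar sums was not tested. SERPING1 ran the other way, at 7.14 to 14.2 CPM in TRPM1 nuclei and 19.5 to 32.5 CPM in GRIK1 nuclei outside the week 4 AAV animals, where it was 30.7 and 31.1 against 46.1 and 36.7 CPM. Both week 4 AAV animals exceeded both week 4 controls within each kind of nuclei.

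Myeloid nuclei also carried C2, below bipolar cells in all 4 controls and above them in both week 4 AAV animals. They held 0 and 35.5 CPM in vehicle animal 7222, 22.6 and 11.4 in animals 7250 and 7251, 53.8 and 44.6 in AAV animal 7221, and 61.8 and 77.0 CPM in animals 7248 and 7249. The arms did not overlap, yet the week 4 controls gave only 3 UMIs in all against 476, a ratio of 4.01 (interval 1.37 to 19.5), and the test did not pass (2.20 on the log2 scale, edgeR adjusted p = 0.104). It passed with all 6 animals in 1 fit (1.71, adjusted p = 0.0441) and without the filter on low counts (2.34, adjusted p = 0.0178). The adjusted p of C1R in Müller cells was also smaller without that filter, at a like difference. Bipolar cells gave 78.3% to 87.1% of the C2 UMIs of gated nuclei in the other 6 retinas but 54.5% and 57.3% in animals 7248 and 7249, where myeloid nuclei gave 23.4% and 18.2%.

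CFB, the protease component of the alternative convertase, passed the filter on counts of the week 4 test in bipolar cells only. In bipolar cells it stood at 2.21 and 2.87 CPM in vehicle animal 7222, 3.53 and 4.33 in animals 7250 and 7251, 4.17 and 4.58 in AAV animal 7221, and 3.37 and 3.15 CPM in animals 7248 and 7249. The arms overlapped, with no call at week 4 (−0.25 ± 0.27 on the log2 scale, edgeR adjusted p = 0.669). The other 8 of the 9 tested classes were at or under 1.70 CPM in every retina. Like C2, CFB was higher in TRPM1 nuclei (4.10 to 6.70 CPM) than in GRIK1 nuclei (0.973 to 3.06 CPM). The genes are neighbours on the same strand, and the part of reads past the end of C2 in CFB counts was not tested.

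**Figure D4:**
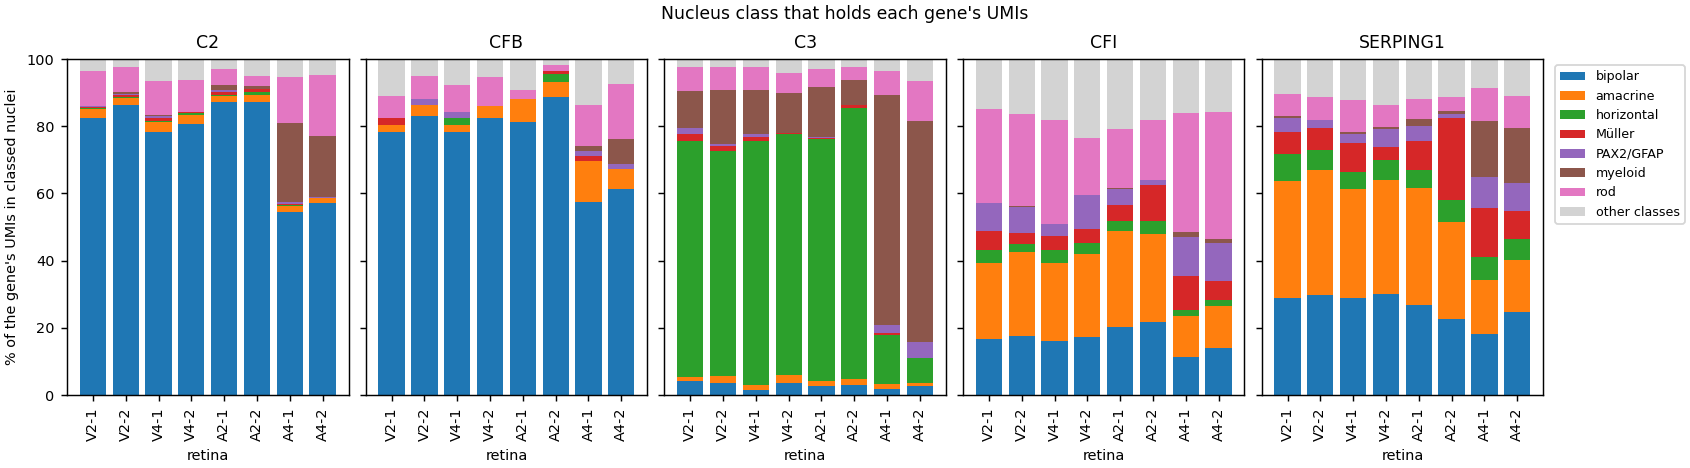
Percent of each gene's UMIs in gated nuclei that came from each cell class, for every retina. Gated nuclei hold 53.5% of all C2 UMIs, 51.4% of CFB, 77.3% of C3, 55.7% of CFI and 42.3% of SERPING1. Among gated nuclei, bipolar cells give most of C2 and CFB in every retina. Horizontal cells give most of C3 in 6 retinas, and myeloid nuclei give most of it in the 2 week 4 AAV-injected animals (68.3% and 66.0%).

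C3, the substrate on which all pathways converge, was read in horizontal and myeloid nuclei. Horizontal cells, interneurons of the outer retina, held 139 and 144 CPM in vehicle animal 7222, 233 and 180 in animals 7250 and 7251, 159 and 215 in AAV animal 7221, and 175 and 28.1 CPM in animals 7248 and 7249. Animal 7249 stood alone, below every other retina. The week 4 difference did not pass (−1.07 ± 0.52 on the log2 scale, edgeR adjusted p = 0.300). It stood at −2.97 without animal 7248 and at −0.25 without animal 7249. Without the filter on low counts it was called lower (−1.08, edgeR adjusted p = 4.92e-07). The same animals gave 0.300 with the filter, so this p-value depends on the filter and does not measure the spread between animals alone. For C1R in Müller cells the edgeR adjusted p likewise went from 0.00135 to 1.2e-09 at a like difference (7.34). Between the 2 AAV animals the ratio of C3 in horizontal cells was 6.20 (interval 4.72 to 8.28), against 1.29 (1.13 to 1.49) between the 2 week 4 controls.

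The share of horizontal nuclei with a C3 UMI was 49.0% to 68.5% in 7 retinas and 16.9% in animal 7249 (41 of 243 nuclei). In rods it was 0.280% to 0.914%, a class that should lack the gene. Thinned to 1000 UMIs, the horizontal shares were 11.3% to 19.2% in 7 retinas and 2.44% in animal 7249. Horizontal nuclei had a median of 8999 UMIs in animal 7249 and of 7422.5 to 10555 in the other retinas.

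Myeloid nuclei held the highest C3 in every retina. The 4 controls stood at 606, 745, 880 and 728 CPM, AAV animal 7221 at 337 and 441, and animals 7248 and 7249 at 424 and 181 CPM. All AAV-injected retinas lay below all controls, and animal 7248 held 2.33 times the level of animal 7249 (interval 2.12 to 2.58). Of 15 other complement genes tested in these nuclei, 1 was lower and 1 higher. Of all genes tested there, 2.71% were higher, and 3.42% of all pairs over the classes were lower. ITGAM, an integrin chain of a complement receptor, stood at 582 to 913 CPM in the 4 controls and at 156 and 132 CPM in animals 7248 and 7249 (−1.98 ± 0.19, edgeR adjusted p = 0.00502), and C9 at 0 to 11.4 and at 114 and 99.4 CPM (4.39 ± 0.72, adjusted p = 0.0238). VSIG4, a complement receptor of macrophages, held 315 and 399 against 271 to 348 CPM (0.45 ± 0.24, adjusted p = 0.351) and C3AR1, the C3a receptor, 138 and 178 against 113 to 182 CPM (0.28 ± 0.33, adjusted p = 0.705). Different cells in this class in the 2 arms and a change within the same cells cannot be told apart. At week 4 the difference in C3 was −1.23 ± 0.42 (log2, edgeR adjusted p = 0.181), and it passed only with the stricter gate (−1.04, adjusted p = 0.0222) and without the filter on low counts (−1.09). The limit given above for p-values without that filter holds here too. As myeloid nuclei were many more in the week 4 AAV animals, they nonetheless gave 68.3% and 66.0% of the C3 UMIs of gated nuclei there, against 7.52% to 16.0% in the other 6 retinas. Horizontal cells gave 14.5% and 7.52% there, against 66.9% to 80.8%. Over all nuclei C3 stood at 20.0 and 6.47 CPM in animals 7248 and 7249 and at 6.92 and 6.71 CPM in the week 4 controls (0.95 ± 0.47, adjusted p = 0.240). In such sums more cells of a type and more RNA per cell cannot be told apart.

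In PAX2/GFAP nuclei C3 rose. They held 6.94 and 2.45 CPM in vehicle animal 7222, 3.95 and 0.729 in animals 7250 and 7251, 1.47 and 0 in AAV animal 7221, and 25.1 and 25.4 CPM in animals 7248 and 7249. At week 2 the AAV eyes lay below the control eyes and at week 4 above them. The week 4 difference was 3.6 ± 0.54 (log2, edgeR adjusted p = 0.00272), from 99 against 5 UMIs. It was 5.05 without vehicle animal 7250 and 2.73 without 7251, and called in both cases. Animals 7248 and 7249 had a ratio of 0.991 (interval 0.649 to 1.53). The week 4 difference exceeded that of the single week 2 pair of animals by 5.87 ± 1.07 (edgeR adjusted p = 0.0261, with the spread of the week 4 animals). Myeloid transcripts stood at up to 2.43 CPM of C1QB and 2.06 CPM of C1QA in these nuclei, and the part of myeloid RNA was not tested. With the stricter gate the C3 difference was 5.35 (adjusted p = 0.00127). With all 6 animals in 1 fit C3 was too low for the filter on counts and was not tested.

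**Figure D5:**
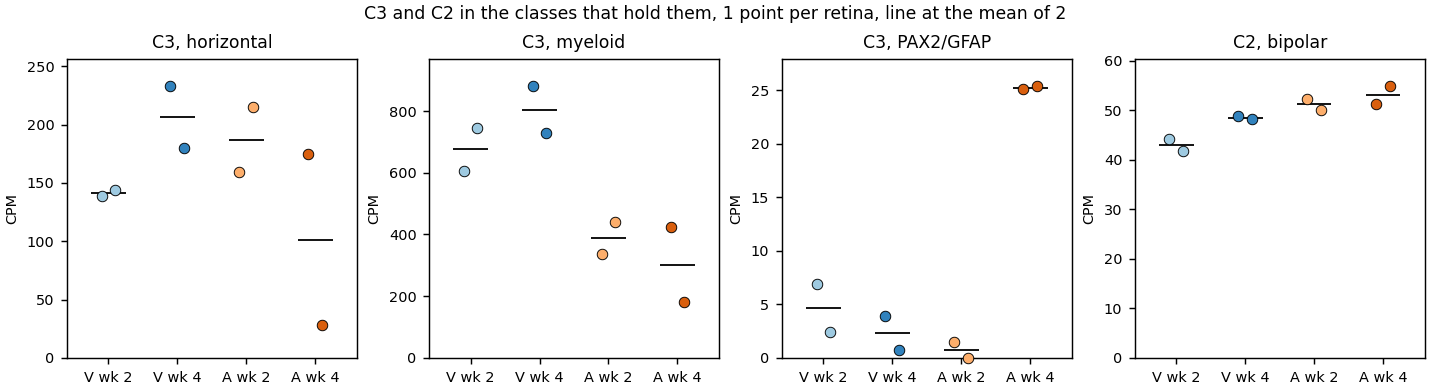
CPM of C3 in horizontal, myeloid and PAX2/GFAP nuclei and of C2 in bipolar cells, with 1 point per retina by group (V for vehicle, A for AAV) and a line at the mean of each 2 retinas. Animal 7249 is the low point of C3 in horizontal cells (28.1 CPM) and myeloid nuclei (181 CPM), and C2 in bipolar cells stays between 41.7 and 54.8 CPM.

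At week 2, with 1 animal in each arm, levels were compared by the ratio of the sums over both eyes, without a test. Of 53 member and class pairs with 10 UMIs or more, 28 were at least 2-fold higher with AAV, where 6.79% of all gene and class pairs were, and 2 were at least 2-fold lower, where 4.02% were. The 2 lower pairs were C3 in Müller cells (0.385, interval 0.164 to 0.841) and in PAX2/GFAP nuclei (0.201, interval 0.0226 to 0.838). C1R had the largest ratios, 28.9 in Müller cells (interval 9.62 to 143; 16.9 in the left eyes) and 19.9 in amacrine cells (8.88 to 55.2; 11.2 in the left eyes). SERPING1 was 5.03 times (4.09 to 6.23) the control in Müller cells, with 2.94 in the left eyes and 5.27 in the right, and C2 in bipolar cells 1.19 times (1.11 to 1.27). C1S in Müller cells was 7.72 times the control over both eyes, but 0.706 times (0.195 to 2.15) in the left eyes and 32.5 times (8.81 to 272) in the right eyes. The left eyes alone gave 14 such higher pairs and the right eyes 24, and 25 were found against the 3 vehicle animals of both weeks together, where C1R stood at 48.1 in Müller cells. Each count covers the pairs with 10 UMIs or more in its own setting, which were fewer with 1 eye in each arm. Shares over all genes were not counted for these settings, so the counts have no baseline. In Müller cells the right eye of animal 7221 exceeded the left for C1R, C1S, CFI and SERPING1. Its Müller cells also held more of the transgene, 37.8 against 25.6 CPM. In PAX2/GFAP nuclei the right eye again held more of the transgene, 171 against 44.7 CPM. There it held more C1R, C1S and SERPING1 but less CFI, 77.8 against 101 CPM. A link between the transgene and these levels was not tested.

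The week 4 difference was also set against that of the single week 2 pair of animals in an edgeR fit whose spread comes from the week 4 animals alone. The week 2 animals are assumed to vary like them, and a difference between weeks and one between animals cannot be told apart. Under that assumption 2 of 46 pairs passed, where 0.296% of all pairs were larger at week 4 and 0.479% smaller. They were C3 in PAX2/GFAP nuclei, given above, and C1S in Müller cells, larger at week 4 by 3.81 ± 0.98 (log2, adjusted p = 0.04995), which missed the threshold without scaling and whose week 2 ratio turned between the eyes. Without adjustment 8 of the 46 pairs had a p under 0.05 in this fit, and the share of all pairs at that threshold was not counted.

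Over all nuclei at week 4, C1R (4.18 ± 0.32 on the log2 scale, edgeR adjusted p = 0.00126), C1S (2.99 ± 0.37, adjusted p = 0.00767) and SERPING1 (0.98 ± 0.18, adjusted p = 0.0253) rose, where 6.71% of all genes did. CFI (0.41 ± 0.43), C2 (0.21 ± 0.13), CFB (0.10 ± 0.22) and C3 did not pass.

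The genes whose levels ran most like each member were sought among 10424 genes over 72 sums, 9 classes in 8 retinas, with Pearson's r of log2(CPM + 1). These sums share libraries and depth, and r is given as a description. C1R ran with GBP1 (0.869), BST2 (0.812) and CSF1 (0.798). C1S ran with C4A (0.769), CSF1 (0.756) and CDKN1A (0.718), and SERPING1 with STX17 (0.858), RAD50 (0.845) and IRF1 (0.842). The nearest genes were CMKLR1 for C2 (0.918), CCM2 for C3 (0.897), GRM6 for CFB (0.880) and PRICKLE1 for CFI (0.748).

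Of 41 further complement genes, 34 were found by symbol and 28 had enough UMIs for a test in some class. Of their 134 gene and class pairs, 17 were higher and 14 lower at week 4, where 3.99% and 3.42% of all gene and class pairs tested were. C4A, the substrate of C1S, rose in the same glia. In Müller cells it stood at 1.93 and 3.06 CPM in vehicle animal 7222, 1.94 and 1.86 in animals 7250 and 7251, 23.8 and 61.6 in AAV animal 7221, and 57.2 and 51.5 CPM in animals 7248 and 7249 (4.79 ± 0.27, edgeR adjusted p = 3.90e-06). In PAX2/GFAP nuclei the difference was 4.12 ± 0.34 (adjusted p = 0.000157). SUSD4, which encodes a complement inhibitor of the cell surface, was a gene of neurons in controls. In Müller cells it stood at 3.69 to 5.97 CPM in the 4 controls, 12.2 and 11.5 CPM in AAV animal 7221, and 71.5 and 86.5 CPM in animals 7248 and 7249 (3.93 ± 0.24, adjusted p = 6.55e-06).

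Among the other genes called in the most classes, C1QB was higher in 4 of 5 and C1QA in 3 of 4, each outside myeloid nuclei. In myeloid nuclei C1QB had no such change, with 194 and 176 CPM in animals 7248 and 7249 and 192 and 148 CPM in the week 4 controls. COLEC12, a scavenger receptor with a collectin domain, was lower in 4 of 9 classes, namely PAX2/GFAP nuclei, rods, cones and bipolar cells. It stood at 1909 to 2936 CPM in Müller and PAX2/GFAP nuclei and at 10.2 to 77.7 CPM in rods, cones and bipolar cells. In Müller cells it was not called (−0.28 ± 0.14, edgeR adjusted p = 0.178). The part of RNA from glia in the values of neurons was not tested. CSMD3, a membrane protein with complement control domains, was lower in 3 (rods, Müller cells and PAX2/GFAP nuclei) and higher in 1 of 9 (bipolar cells). It stood at 8.11 to 130 CPM in the classes where it was lower and at 622 to 1142 CPM in bipolar cells. The part of RNA from other classes in the low values was not tested. C7, MBL2, FCN2, C5AR2, C4BPA and CD93 had too few UMIs to be tested in any class.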

How the data were processed

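The authors aligned reads of 3′ single-nucleus libraries to Sscrofa11.1 (Ensembl release 113) with EGFP added, using Cell Ranger 8.0.0. They deposited raw UMI counts per gene and nucleus, without normalization, for 4 lanes in each of 8 retinas, and gave no cell types. Of 35683 genes, 18049 have an identifier and no symbol.

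Lanes were joined, nuclei filtered after miQC (posterior 0.75), and each nucleus was assigned to the class whose markers were enriched in it. The scoring rule was set after gate output had been seen. The members and lists were chosen with earlier results of these data known. No doublet caller was run. A stricter gate asked for a larger margin between classes and left out nuclei with markers of another class. Astrocyte markers came down to PAX2 and GFAP. Fibroblast and oligodendrocyte gates were not used.

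Counts were summed per retina and class. edgeR 4.0.16 (quasi-likelihood test, TMM, filterByExpr at 10 counts, R 4.3.3) compared 2 with 2 week 4 animals in the 9 classes with 20 nuclei or more in each retina, with Benjamini-Hochberg adjustment over all genes tested in a class and a threshold of 0.05. Each week 4 retina came from its own animal, and p-values measure the spread between 2 animals per arm. The edgeR test gives no standard error. Each SE is the absolute log2 difference divided by the square root of the F statistic. Interactions tested week (eyes of an animal summed) and class (animal as block). At week 2 the sums over both eyes were compared without a test. Intervals are exact and cover counting error. On simulated counts 95.8% of changed genes were recovered in rods (19880 genes), 93.8% in Müller cells (13520) and 23.2% in myeloid nuclei (11280). The test had little power in myeloid nuclei even on those counts. Recovery at the spread seen between these animals was not tested in any class. The named genes were the 9 members, the 3 genes most like each, and the other complement genes called in the most classes or too low to test, and SUSD4 and C4A, which share the last place with C1QC and CSMD1, were singled out after their values were seen, as were ITGAM, C9, VSIG4 and C3AR1 in myeloid nuclei. Alternatives were DESeq2 1.42.0, no scaling, no filter on low counts, all barcodes, nuclei with 1000 UMIs or more, the stricter gate, all 6 animals, and leaving out each week 4 retina.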

Additional observations from a re-analysis of the deposited data

Results flagged for a closer look

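For 2 pairs of a gene and a class the AAV difference at week 4 exceeded that of the single pair of week 2 animals in edgeR's interaction test, by 5.87 (log2) for C3 in PAX2/GFAP nuclei and by 3.81 for C1S in Müller cells. Week 2 is 1 animal against 1, so week and animal cannot be told apart, and C1S missed the threshold without scaling. At week 2 the eyes of the AAV animal differed for C1S in Müller cells, with 1.49 CPM in the left and 14.2 CPM in the right.

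At week 4 the log2 effect in Müller cells exceeded that in another class for 14 pairs by the same kind of test. For C1S it was larger by 4.47 than in amacrine cells, by 5.70 than in rods and by 10.67 than in horizontal cells. The last value depends on horizontal cells having 0 C1S UMIs in both AAV animals and is no measure of size. For CFI the effect was larger by 1.66 than in amacrine cells, 1.36 than in bipolar cells, 1.13 than in cones, 1.48 than in ganglion cells, 1.98 than in horizontal cells and 1.55 than in rods. For SERPING1 it was larger by 1.74 than in amacrine cells, 1.45 than in bipolar cells, 1.87 than in cones, 1.12 than in ganglion cells and 1.92 than in rods.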

How the results depend on the processing

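Over 11 alternatives at week 4, 13 to 23 pairs of a member and a class were higher, and 14 to 19 when 1 retina was left out, against 17. The number called lower was 0, and became 2 without the filter on low counts (C3 in horizontal and myeloid nuclei), 1 with the stricter gate (C3 in myeloid nuclei) and 0 to 1 when 1 retina was left out. 7 of the 17 pairs were called in all 11 alternatives, namely C1R in amacrine cells, C1S and CFI in Müller cells, and SERPING1 in Müller, PAX2/GFAP, amacrine and horizontal nuclei. With 1 retina left in an arm, that retina is assumed to vary like the other arm. Without the filter on low counts, adjusted p-values were smaller at like differences, so calls from that setting do not measure the spread between animals alone. Values for single pairs were followed for the 17 called pairs and a chosen set of uncalled ones, not for all 42 pairs tested. Of these values, 282 kept direction and side of the threshold, 15 lost the call and 13 gained one, and 3 turned direction, none of them called. Turns of direction in the uncalled pairs left out, such as CFI in cones, were not counted. Pairs that gave no adjusted p under an alternative, such as C1R in Müller cells without AAV animal 7248, are not in these counts. CFI turned to −0.18 in bipolar cells and −0.52 in rods without AAV animal 7248 (0.94 and 0.93 without animal 7249), and CFB in bipolar cells to 0.13 with all 6 animals. Over all nuclei 3 members were called, and 2 to 5 when 1 retina was left out, with 5 without AAV animal 7249. At week 2 the left eyes alone gave 14 pairs at least 2-fold higher against 28 for both eyes. Fewer pairs reached 10 UMIs in the left eyes, so part of this drop comes from the count floor. C1R in rods, with 5 against 0 UMIs, is such a pair. The number of pairs that differed between weeks was 2 and became 1 without scaling, where C1S in Müller cells missed the threshold. Causes were not tested. No paired analysis was possible because replicate numbers were given in accession order and week 4 animals carry no shared number across arms. Depth limits the vehicle myeloid nuclei most, where 3 UMIs are 17.0 CPM.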
